A study of Mus musculus with 10 samples.

Results

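Genes that the transcription factor p53 activates directly were examined in jejunum, the middle stretch of the small intestine. They serve as a readout of DNA damage in tissue that carries a Cre recombinase. The set was given as a list of 10 genes (Cdkn1a, Mdm2, Trp53inp1, Bax, Bbc3, Ccng1, Phlda3, Zmat3, Eda2r and Sesn1). It was taken from what is known of p53, by a choice made with earlier results of these data known. All 10 are among the 55414 genes of the count files, and all 10 passed the filter on low counts that left 18654 genes for testing. RNA sequencing covered 10 libraries of male C57BL/6J mice, 5 labelled RetSat ko and 5 labelled control. RetSat ko samples were RetSat flox/flox with the villin-Cre-ERT2 transgene. Control samples were RetSat flox/flox without it. Tamoxifen was given to both groups over 5 days, and a high-fat diet (60 kcal% fat) followed over 14 weeks. The villin promoter restricts Cre to the intestinal epithelium, whereas the libraries are of whole jejunum. The labels name neither the age of the mice nor a group with Cre and intact RetSat. Loss of RetSat and the presence of Cre therefore cannot be told apart. No library was taken soon after tamoxifen, and Cre activity at collection was not measured.

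p53 is held at a low level by the ubiquitin ligase Mdm2 and is stabilised when kinases such as Atm report DNA breaks. It then binds pairs of a decamer consensus near its target genes, which stop the cell cycle, start apoptosis or feed back on p53 itself. In the intestine the pathway is best known for the loss of crypt cells after irradiation. Cre can cut genomic sequences that resemble its own target, which is the reason its presence is watched as a source of breaks. In whole tissue, fewer cells of a type and less RNA per cell cannot be told apart.

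The starting point is the sequence p53 reads, shown here because p53 is known to act on these genes through it. The RefSeq promoter table, build GRCm38.p6, holds 12 windows for 8 of the members, each running from 250 bases before to 50 bases after a transcription start. Zmat3 and Trp53inp1 are not among them. The consensus p53 decamer, which reads the same on both strands, was present in 5 of these windows, 1 each for Cdkn1a, Mdm2, Bax, Ccng1 and Sesn1, and in 8.36% of all 32851 windows. A complete site, 2 decamers with at most 13 bases between them, was found only in the upstream window of Cdkn1a and in 0.0731% of all windows. The central tetrads of 2 abutting decamers, a looser pattern that may overlap a decamer, were found in Cdkn1a and in 1 window of Bbc3, and in 7.22% of all windows. In the 2 windows below, capitals mark decamers and tetrad pairs with the 6 bases between the tetrads. In the Cdkn1a window, the second decamer and the tetrad pair overlap.
Cdkn1a, chr17:29090729-29091028, plus strand: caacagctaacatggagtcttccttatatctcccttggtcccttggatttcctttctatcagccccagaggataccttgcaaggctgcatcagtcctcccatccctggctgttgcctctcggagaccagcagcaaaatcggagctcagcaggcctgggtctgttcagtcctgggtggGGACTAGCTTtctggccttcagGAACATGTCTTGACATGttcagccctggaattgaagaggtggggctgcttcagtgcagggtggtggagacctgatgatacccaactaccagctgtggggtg
Bbc3, chr7:16309333-16309632, plus strand: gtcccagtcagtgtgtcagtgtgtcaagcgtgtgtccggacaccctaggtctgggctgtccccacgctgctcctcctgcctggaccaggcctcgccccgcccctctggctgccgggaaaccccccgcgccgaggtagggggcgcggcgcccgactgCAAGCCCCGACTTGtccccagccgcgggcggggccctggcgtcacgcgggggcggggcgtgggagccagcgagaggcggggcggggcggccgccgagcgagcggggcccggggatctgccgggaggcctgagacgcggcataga
For the other members with a match, the decamer is shown in capitals within 30 bases of its window.
Mdm2, window chr10:117710709-117711008, minus strand, decamer from 186 to 177 bases upstream: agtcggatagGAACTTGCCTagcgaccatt
Bax, window chr7:45466849-45467148, minus strand, decamer from 201 to 192 bases upstream: agcatatcccAGGCAAGCTTtgaacttgcg
Ccng1, window chr11:40755237-40755536, minus strand, decamer from 185 to 176 bases upstream: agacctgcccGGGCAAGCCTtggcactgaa
Sesn1, window chr10:41887189-41887488, plus strand, decamer from 173 to 164 bases upstream: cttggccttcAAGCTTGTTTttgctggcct
The window of Phlda3, the member whose counts differed most between the genotypes below, is printed whole and holds neither pattern in full. Its last bases fit the start of a decamer that the end of the window cuts off, which could not be scored.
Phlda3, chr1:135765835-135766134, plus strand: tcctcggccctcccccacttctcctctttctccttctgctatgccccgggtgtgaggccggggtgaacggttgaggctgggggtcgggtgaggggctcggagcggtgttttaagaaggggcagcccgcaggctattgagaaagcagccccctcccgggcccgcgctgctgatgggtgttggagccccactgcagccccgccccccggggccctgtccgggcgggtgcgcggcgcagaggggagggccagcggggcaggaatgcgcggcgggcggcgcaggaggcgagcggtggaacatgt
A match is a description of these letters and does not show binding. Sequence outside these windows was not searched, so the sites that p53 uses at these genes may lie elsewhere.

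The libraries held 102844680 to 128730695 counts each, with no detectable difference between the genotypes (two-sided exact permutation test, p = 0.746). Retsat, the deleted gene, had 15.4 to 33.4 CPM (counts per 1e+06 counts of the TMM-adjusted library) in RetSat ko, against 340.2 to 576.2 CPM in control. Esr1, part of which the Cre-ERT2 transgene carries, had 33.3 to 45.8 CPM in RetSat ko, against 0.496 to 0.686 CPM in control. The 10 absorptive enterocyte markers were all present, summing to 41392 to 60544 CPM in RetSat ko and 44364 to 69802 CPM in control. Fabp6 and Slc10a2, which mark ileum, summed to at most 2.24 CPM. RetSat ko 1 stood apart from the other RetSat ko libraries, and 4 libraries (RetSat ko 1 and 2, control 4 and 5) held 10 acinar transcripts of the pancreas at 115.7 to 2602 CPM in sum, where the rest held 8.66 to 21.3 CPM. Counts of called genes are also given without RetSat ko 1, a library picked out by these same values. Leaving it out gave 846 called genes, against 6 with all libraries. Leaving out RetSat ko 2, the library with the most acinar transcripts, gave 5.

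The p53 targets did not rise as a group in RetSat ko jejunum, which carries the Cre transgene. In edgeR's quasi-likelihood test over all genes, none of the 10 passed an adjusted p of 0.05, where 0.0322% of all tested genes did. At an unadjusted p under 0.05, 2 of them were called, Phlda3 and Bax, both higher in RetSat ko, where 12.2% of all tested genes were called. Phlda3 alone was called at that level when RetSat ko 2, 3 or 5 or control 1, 3 or 4 was left out, and in DESeq2. By adjusted p, DESeq2 called 1 (Phlda3), where it called 1.04% of all genes it adjusted, and limma-voom 0. Of the 10 log2 fold changes, 3 were positive and 7 negative, with a median of -0.074, beside 53.9% positive and a median of 0.020 over all tested genes. Without RetSat ko 1 the same split of 3 and 7 was found, beside 54.7% positive over all tested genes, and the median was -0.12. In that fit 1 of the 10, Phlda3, passed, where 4.45% of all tested genes passed. At an unadjusted p under 0.05 it called 6 of the 10, where 23.7% of all tested genes were called. These were 2 higher in RetSat ko (Phlda3 and Bax), where 11.4% of all genes were, and 4 lower (Mdm2, Bbc3, Ccng1 and Sesn1), where 12.2% were.

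**Figure D1:**
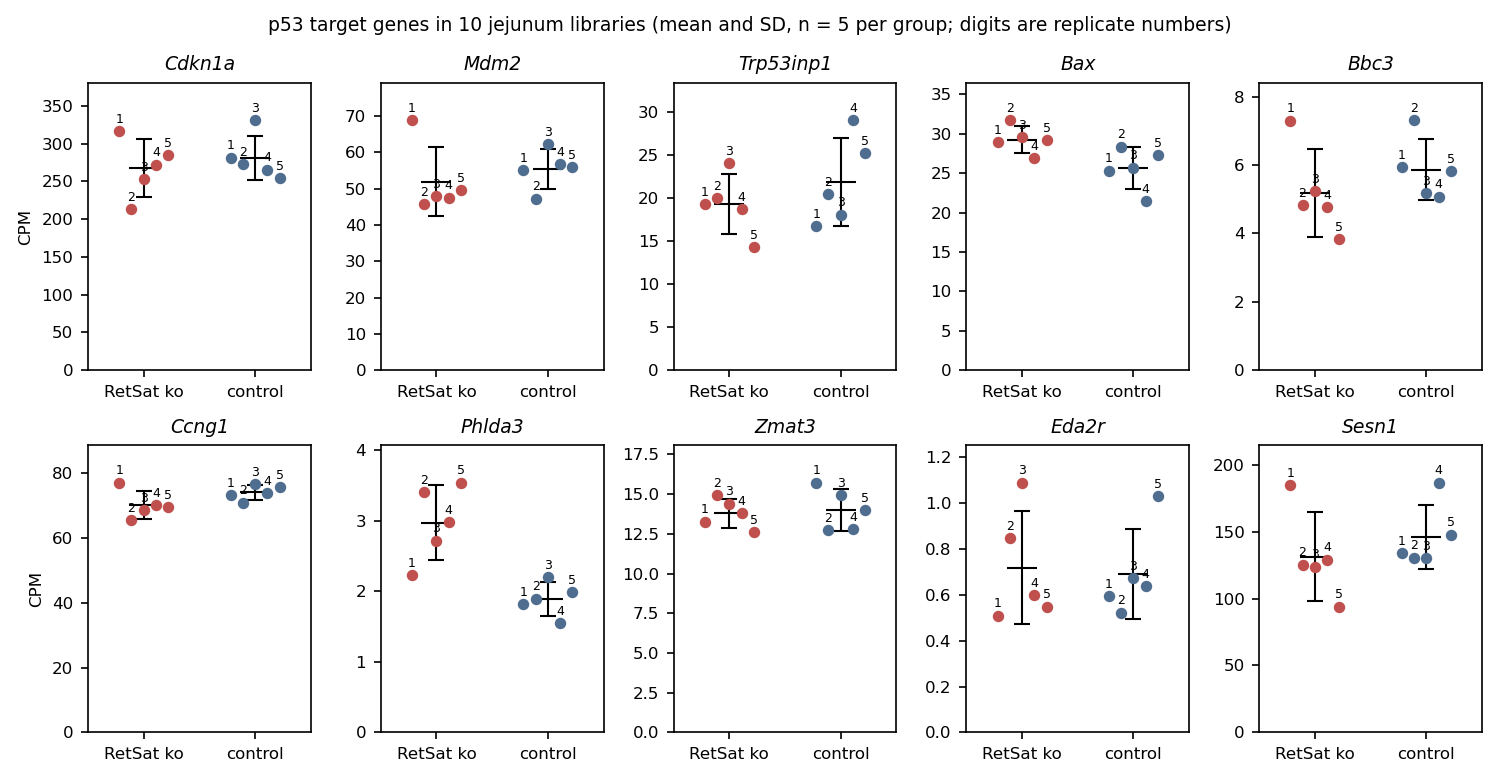
CPM of each p53 target gene (vertical axes, from 0) in the 5 RetSat ko and 5 control libraries; points are libraries with their replicate number, and bars the mean and SD. Only for Phlda3 do the 5 RetSat ko libraries, at 2.23 to 3.54 CPM, all lie above the 5 control libraries.

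Among the members, levels per exon length spanned a wide range and kept nearly the same order in both genotypes. On the RPKM scale (CPM per kilobase of exon), Cdkn1a was highest with 75.4 ± 10.8 in RetSat ko and 79.1 ± 8.31 in control (SD, n = 5 each). Sesn1 followed with 33.0 ± 8.30 in RetSat ko and 36.6 ± 5.99 in control, then Ccng1 with 19.996 ± 1.21 in RetSat ko and 21.1 ± 0.636 in control, Bax with 18.6 ± 1.08 in RetSat ko and 16.3 ± 1.68 in control, and Mdm2 with 10.2 ± 1.88 in RetSat ko and 10.9 ± 1.06 in control. The library values of Ccng1 and Bax overlapped in RetSat ko and not in control. Trp53inp1 had 2.98 ± 0.536 RPKM in RetSat ko and 3.38 ± 0.791 RPKM in control, and Bbc3 2.44 ± 0.605 RPKM in RetSat ko and 2.76 ± 0.420 RPKM in control, which did not differ beyond their spread. At the low end, Phlda3 had 1.91 ± 0.340 RPKM in RetSat ko and 1.21 ± 0.153 RPKM in control, and Zmat3 had 1.21 ± 0.0799 RPKM in RetSat ko and 1.23 ± 0.116 RPKM in control. Phlda3 ranked above Zmat3 in RetSat ko and below it in control, where their levels did not differ beyond the spread. In RetSat ko the library values of Phlda3 and Bbc3 overlapped. Eda2r was lowest, with 0.122 ± 0.0417 RPKM in RetSat ko and 0.117 ± 0.0335 RPKM in control, from 52 to 127 raw counts per library.

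The cell cycle arm showed no rise. Cdkn1a encodes p21, which inhibits cyclin-dependent kinases and is the most widely used reporter of p53 activity (ENSMUSG00000023067.15, GRCm39 chromosome 17, 29309950 to 29319701). It had 316.6, 212.9, 252.6, 272.1 and 284.7 CPM in RetSat ko 1 to 5, against 281.7, 272.6, 330.8, 265.4 and 254.8 CPM in control 1 to 5. The groups overlapped, with the highest library a control and the lowest a RetSat ko. Its log2 fold change was -0.070 ± 0.108 (SE; edgeR adjusted p = 0.822), and the 95% interval, from -0.31 to 0.17, ends at a 1.12-fold rise. Ccng1, cyclin G1, which recruits a phosphatase to Mdm2, had 77.1, 65.6, 68.6, 70.3 and 69.6 CPM in RetSat ko 1 to 5, against 73.3, 71.0, 76.6, 73.8 and 75.8 CPM in control 1 to 5. RetSat ko 1 was above every control library and the other 4 below every one. The log2 fold change was -0.078 ± 0.0573 (edgeR adjusted p = 0.600), with an interval that ends at a 1.03-fold rise, the narrowest of the 10.

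Genes that act on p53 itself stood level or somewhat lower. Mdm2, the ligase that destroys p53 and is induced by it (ENSMUSG00000020184.16, chromosome 10, 117524780 to 117546663), had 68.8, 45.8, 47.9, 47.5 and 49.6 CPM in RetSat ko 1 to 5, against 55.1, 47.2, 62.3, 56.7 and 55.9 CPM in control 1 to 5. RetSat ko 1 was the highest of all 10 libraries, and the other 4 RetSat ko libraries lay below every control but control 2. The log2 fold change was -0.096 ± 0.113 (edgeR adjusted p = 0.759) and the interval ends at a 1.11-fold rise. Without RetSat ko 1 it was -0.22 ± 0.0748 (adjusted p = 0.110). Trp53inp1, which helps p53 toward apoptotic targets, ranged from 14.3 to 24.0 CPM in RetSat ko and from 16.7 to 29.0 CPM in control, with a log2 fold change of -0.18 ± 0.166. Zmat3, an RNA-binding protein of p53's tumour-suppressing program, ranged from 12.6 to 14.9 CPM in RetSat ko and from 12.7 to 15.7 CPM in control. Its log2 fold change was -0.024 ± 0.0819, and its interval ends at a 1.11-fold rise.

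The apoptotic members did not move together. Bax, which opens the outer mitochondrial membrane, had 29.0, 31.7, 29.5, 26.9 and 29.2 CPM in RetSat ko 1 to 5, against 25.3, 28.4, 25.7, 21.4 and 27.3 CPM in control 1 to 5. In RetSat ko, 4 libraries were above every control and all 5 above the control mean. The log2 fold change was 0.19 ± 0.0798 and did not pass (edgeR's quasi-likelihood test, adjusted p = 0.371). Leaving out the 3 libraries richest in B cell markers gave 0.080, and leaving out the 4 richest in acinar markers gave 0.11. Bbc3, known as PUMA, a BH3-only protein that frees Bax, had 7.30, 4.83, 5.23, 4.77 and 3.83 CPM in RetSat ko 1 to 5, against 5.94, 7.30, 5.17, 5.08 and 5.83 CPM in control 1 to 5. The groups overlapped and the log2 fold change was -0.18 ± 0.166 (edgeR adjusted p = 0.691). Eda2r, a death receptor of the TNF receptor family, ranged from 0.509 to 1.09 CPM in RetSat ko and from 0.522 to 1.03 CPM in control. Its log2 fold change was 0.057 ± 0.260, and at this depth the interval, from -0.51 to 0.62, leaves room for a 1.54-fold rise.

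Phlda3 was the 1 member whose genotypes did not overlap. It encodes a small protein with a pleckstrin homology domain that keeps the kinase Akt off the membrane (ENSMUSG00000041801.6, chromosome 1, 135693857 to 135696874). It had 2.23, 3.41, 2.72, 2.98 and 3.54 CPM in RetSat ko 1 to 5, against 1.82, 1.90, 2.21, 1.55 and 1.98 CPM in control 1 to 5. The lowest RetSat ko library, RetSat ko 1, was just above the highest control, control 3. Groups did not overlap in 2.31% of all tested genes, and in 1.58% in this direction. The log2 fold change was 0.65 ± 0.155, a 1.57-fold higher level with an interval from 1.25-fold to 1.99-fold. In edgeR its unadjusted p was 0.00115 and its adjusted p 0.291, so it did not pass. It passed in DESeq2 (adjusted p = 0.0168), which called 0.569% of genes higher, and in edgeR without RetSat ko 1 (log2 fold change 0.74 ± 0.138, adjusted p = 0.0274), where 1.95% of genes were called higher. Over all 21 alternatives the log2 fold change stayed between 0.56 and 0.74 and the adjusted p between 0.0168 and 0.977. Raw counts were 180 to 491 per library, no exon of another gene overlaps Phlda3, and no similar transcript of another gene was found.

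Sesn1, sestrin 1, which restrains the growth kinase mTORC1, had 184.9, 125.3, 123.8, 129.2 and 93.9 CPM in RetSat ko 1 to 5, against 133.8, 130.7, 130.4, 186.6 and 147.8 CPM in control 1 to 5. RetSat ko 1 and control 4 were alike and high, and the other 4 RetSat ko libraries lay below every control. The log2 fold change was -0.15 ± 0.163 (edgeR adjusted p = 0.735), and -0.31 ± 0.127 without RetSat ko 1 (adjusted p = 0.178).

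**Figure D2:**
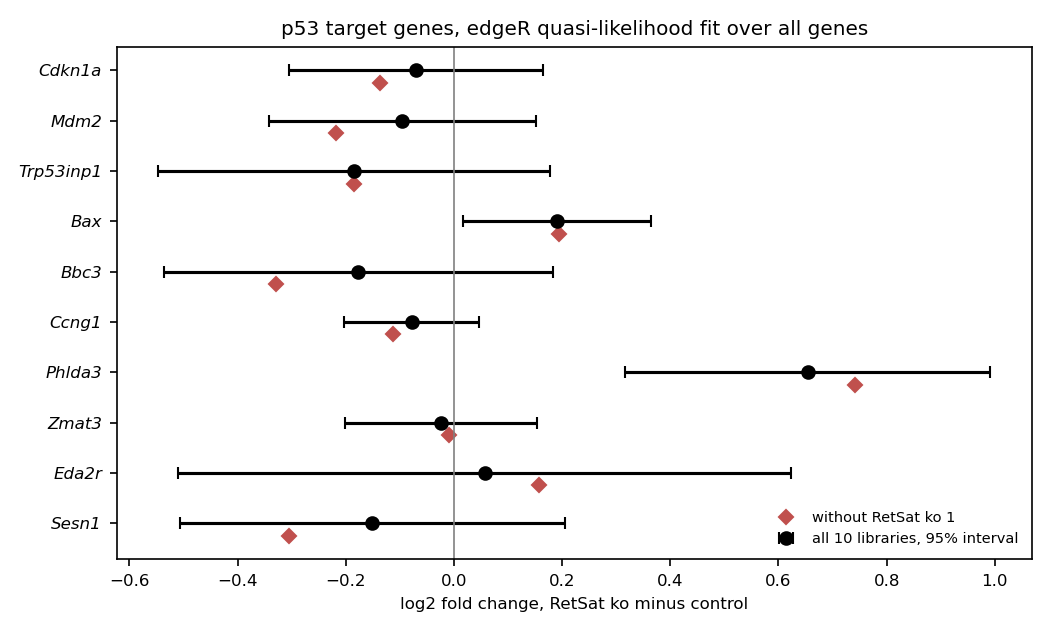
Log2 fold change (horizontal axis, RetSat ko minus control) of each p53 target gene with its 95% interval from the fit of all 10 libraries (circles and bars), and the value without RetSat ko 1 (diamonds). Phlda3 at 0.65 and Bax at 0.19 are the members whose interval lies above 0.

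RetSat ko 1 had the highest value among the RetSat ko libraries for 5 of the 10 members (Cdkn1a, Mdm2, Bbc3, Ccng1 and Sesn1), whereas it was highest for 29.8% of all tested genes. In that library the enterocyte markers summed to 60544 CPM, where RetSat ko 2 to 5 had 41392 to 45570 CPM. Apoa4 made up the largest part, with 23517 CPM, whereas RetSat ko 2 to 5 ranged from 11996 to 14578 CPM. Alpi, Sis, Slc5a1, Vil1 and Treh were likewise highest in RetSat ko 1 among the RetSat ko libraries. Fabp1, Fabp2 and Lct were higher in other RetSat ko libraries, and Anpep was lowest in RetSat ko 1, at 1976 CPM. The 7 crypt stem cell markers summed to 562.0 CPM in RetSat ko 1 and 702.6 to 835.8 CPM in RetSat ko 2 to 5. In control they summed to 515.5 to 724.0 CPM, and 3 RetSat ko libraries were above every control. Between the genotypes each enterocyte marker had a negative log2 fold change, from -0.58 (Sis) to -0.082 (Fabp1). Each crypt marker had a positive one, from 0.19 (Axin2) to 0.45 (Ascl2), and no marker of either list passed in edgeR. Control 3, the library with the most Cdkn1a, also had the highest enterocyte sum, 69802 CPM. Control 4, with the lowest enterocyte sum among controls, 44364 CPM, had the most Sesn1 and Trp53inp1 of all 10 libraries, 186.6 and 29.0 CPM. The enterocyte score was the mean log2 of CPM plus 0.5 over the 10 enterocyte markers. As each of these markers was lower in RetSat ko, a fit with this score can also take away differences between the genotypes. With the score as a covariate, added after the data were seen, the log2 fold changes of Cdkn1a and Mdm2 were 0.12 and 0.15 (edgeR adjusted p = 0.828 and 0.711). That of Phlda3 was 0.63 ± 0.220 (adjusted p = 0.521). The enterocyte sum was below every control in 3 of the RetSat ko libraries, and the part of cell makeup in these values was not tested further.

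**Figure D3:**
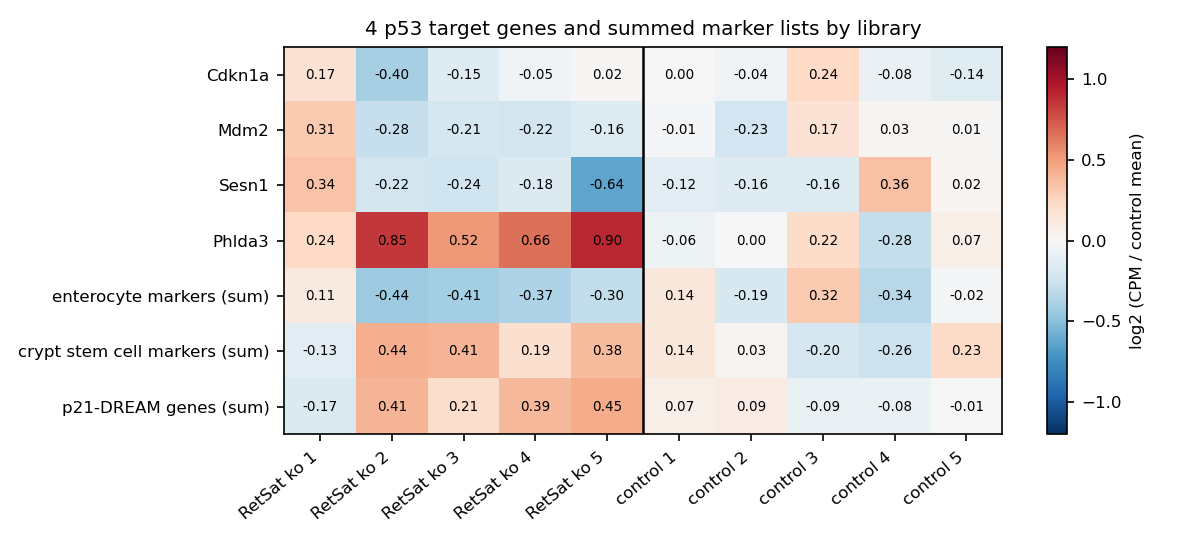
Log2 ratio of CPM to the control mean (colour and printed value) for 4 p53 target genes and 3 summed gene lists (rows) in each library (columns, RetSat ko left of the line). In RetSat ko 1 the p21-DREAM genes stand at -0.17 and the enterocyte markers at 0.11, whereas in RetSat ko 2 to 5 the p21-DREAM genes stand at 0.21 to 0.45 and the enterocyte markers at -0.44 to -0.30.

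Other genes of the pathway were counted over lists chosen by function. Of 35 tested further p53 targets, 20 were positive and 15 negative (median 0.033), and none passed in edgeR or DESeq2. The 3 with the smallest p were Ddit4, an inhibitor of mTORC1 that also answers glucocorticoids and low oxygen, with a log2 fold change of 0.45 ± 0.113, and the mitotic spindle genes Ckap2 and Gtse1 with 0.36 ± 0.117 and 0.33 ± 0.119 (edgeR adjusted p from 0.291 to 0.321). Without RetSat ko 1, 2 of the 35 rose, Ckap2 (adjusted p = 0.0257) and Gtse1 (0.0319), where 1.95% of all genes rose. With the enterocyte score as a covariate the list held 16 positive and 19 negative values (median -0.055). Trp53, the gene of p53, singled out after its values were seen, had 45.9 ± 6.10 CPM in RetSat ko and 42.2 ± 1.75 CPM in control (SD, n = 5 each), with a log2 fold change of 0.12 ± 0.0893 (edgeR adjusted p = 0.605).

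Of 19 tested genes for p53 and its regulators, 14 were positive and 5 negative (median 0.054), and none passed. Hipk2, a kinase that phosphorylates p53, had 41.7, 41.3, 34.6, 38.8 and 33.1 CPM in RetSat ko 1 to 5, against 42.4, 45.6, 59.3, 59.2 and 46.9 CPM in control 1 to 5. All RetSat ko libraries lay below all control libraries, as in 0.729% of tested genes, and the log2 fold change was -0.42 ± 0.109 (edgeR adjusted p = 0.291). H2ax, the histone whose phosphorylation marks breaks, had 0.29 ± 0.106 (adjusted p = 0.331), and Ep300, an acetyltransferase of p53, -0.18 ± 0.0881 (adjusted p = 0.421). Without RetSat ko 1, 1 of 20 tested regulators rose, H2ax (0.37 ± 0.0781, adjusted p = 0.0336), where 1.95% of all genes rose, and 15 of the 20 were positive. With the enterocyte score as a covariate the list turned to 6 positive and 13 negative values (median -0.043). H2ax protein phosphorylation is not read by RNA.

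Double-strand break repair genes and cell cycle genes stood toward higher values. Of 20 repair genes 18 were positive (median 0.19), led by the exonuclease Exo1 with 0.40 ± 0.126 and the recombination gene Rad54l with 0.35 ± 0.124. None passed in edgeR (adjusted p from 0.303 upward) or DESeq2, and 5 rose without RetSat ko 1, among them Exo1, Rad54l, Parp1 and Brca2, where 1.95% of all genes rose. In that fit 16 of the 20 were positive (median 0.29). With the enterocyte score as a covariate 12 were positive and 8 negative (median 0.030). All 22 genes that p21 and the DREAM complex are known to repress once p53 is active were positive (median 0.32), with 13 at an unadjusted p under 0.05, against 6.79% of all tested genes in that direction. Cks2, a subunit of cyclin-dependent kinases, had 0.35 ± 0.0910, the survival gene Birc5 0.38 ± 0.106 and the mitotic ubiquitin enzyme Ube2c 0.34 ± 0.0961, each with an edgeR adjusted p of 0.291. Only Cks2 passed in DESeq2 (adjusted p = 0.0390). Without RetSat ko 1, 16 of the 22 rose in edgeR, where 1.95% of all genes did, and all 22 had an unadjusted p under 0.05, where 11.4% of all genes had one in that direction. The 22 genes summed to 512.5 CPM in RetSat ko 1 and 665.7 to 784.8 CPM in RetSat ko 2 to 5, against 541.3 to 614.9 CPM in control, so that 4 RetSat ko libraries were above every control and 1 below every control. With the enterocyte score as a covariate 16 of these 22 genes were positive and 6 negative (median 0.084).

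Of 9 tested CDK inhibitors other than p21 and senescence genes, 4 were positive and 5 negative (median -0.085). Lmnb1, a lamin that is lost in senescence, had 0.29 ± 0.123, the CDK inhibitor Cdkn2c 0.20 ± 0.0860 and the lysosomal galactosidase Glb1 -0.11 ± 0.0708 (edgeR adjusted p from 0.369 to 0.529). Of 14 tested genes of the Bcl2 family and its caspases, 6 were positive and 8 negative (median -0.079). The initiator caspase Casp9 had -0.24 ± 0.0761 and the BH3-only gene Bcl2l11 -0.24 ± 0.125 (edgeR adjusted p = 0.307 and 0.447). In this list 2 genes, both lower in RetSat ko, had an unadjusted p under 0.05, where 5.45% of all genes had one in that direction. None of either list passed in edgeR or DESeq2. Without RetSat ko 1, Lmnb1 rose (adjusted p = 0.0253), where 1.95% of all genes rose, and Casp9 fell (adjusted p = 0.0394), where 2.5% of all genes fell. In that fit the Bcl2 family held 4 positive and 10 negative values (median -0.19). At an unadjusted p under 0.05 it had 1 gene higher and 7 lower, where 11.4% and 12.2% of all genes were. With the enterocyte score as a covariate 6 of the 9 CDK inhibitors and senescence genes were positive (median 0.023), and 7 of the 14 of the Bcl2 family (median -0.024).

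**Figure D4:**
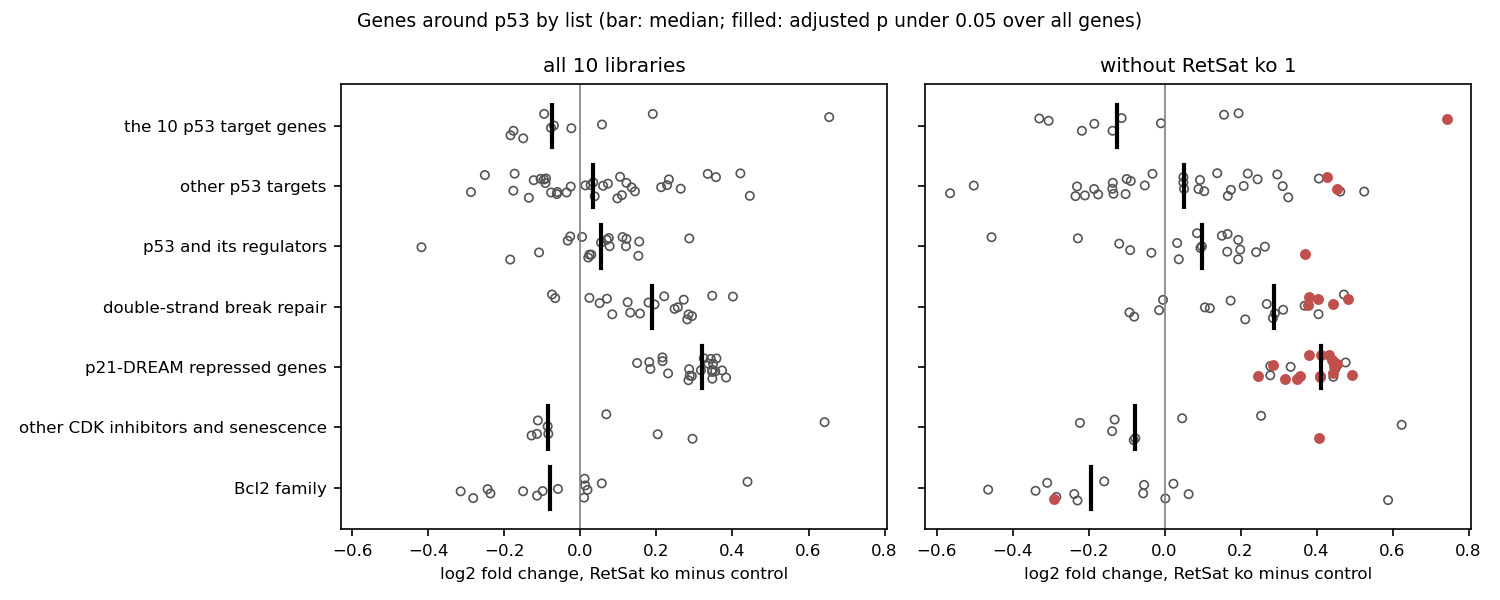
Log2 fold change (horizontal axes, RetSat ko minus control) of every tested gene in 7 lists, with all 10 libraries on the left and without RetSat ko 1 on the right; bars are medians and filled points passed an adjusted p of 0.05 over all genes. With all libraries no point is filled, and the p21-DREAM genes lie farthest to the right with a median of 0.32, against -0.074 for the 10 p53 target genes.

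The mean standardised level of the 10 members over the 10 libraries was compared with 12489 other tested genes with a mean of at least 1 CPM, leaving out genes with only a provisional name. Most alike were Ube2q1, a ubiquitin-conjugating enzyme, with Pearson's r = 0.960 and Spearman's rho = 0.988, and Rom1, Slc19a2, Calml4 and Coq8b, with r from 0.929 to 0.939. These are the highest of many values over libraries that share depth and cell makeup, and are given as a description.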

How the data were processed

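Members and gene lists were chosen with earlier results of these data known. Each deposited file holds 1 library as whole-number counts per gene, not normalized. Per the file headers, they were made with featureCounts 2.0.1 over exons of the GENCODE mouse M28 annotation with the largest-overlap option and no option for strand, pairs or multiple alignments. Per the submitters' processing notes, Trimmomatic and STAR were used with GRCm39. Symbols were matched by identifier for 52081 of 55414 genes. Groups and replicate numbers come from the sample titles. The labels do not say outright that each sample is a separate animal, so p-values describe the spread of these samples, which may be technical.

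Counts were analysed in R 4.3.3 with edgeR 4.0.16 (filterByExpr, TMM, robust quasi-likelihood F-test, no covariates, Benjamini-Hochberg adjustment over 18654 genes, threshold 0.05). SE and 95% intervals come from the same fit. Alternatives used DESeq2 1.42.0, limma 3.58.1 (voom), other scalings and filters, the replicate block and leaving out each library. On simulated counts for RetSat ko against control (18189 genes tested, 50 changed at each size), 44% of 1.5-fold, 84% of 2-fold and 96% of 4-fold changes were recovered, with 8 false calls among 168. With 168 calls the adjusted threshold was less strict than in the data, where 6 genes were called. These shares therefore do not give the recovery in the data. The smallest chi-square per degree of freedom over 45 pairs of libraries was 49.6, so none was a duplicate. Same-numbered libraries did not deviate together. Named genes were the members, Retsat and Esr1, and of each list those past the threshold or else the 3 with the smallest p, with the 5 genes most like the members. Values of 2 genes that this rule names are not reported here.

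Without strand, overlapping genes cannot be separated. A gene on the opposite strand, with at most 65 counts, shares 7.68% of the exon bases of Cdkn1a, and a gene on the same strand with 0 counts shares 12.2% of those of Bax. Matches of at least 100 bases and 90% identity to transcripts of other genes (GENCODE M21, blastn 2.17.0) were at most 262 bases long. Cdkn1a matched 1376 other genes, Mdm2 1001, Zmat3 457 and Bax 1, and the remaining members matched none. Promoter windows are from RefSeq on GRCm38.p6. Gene positions are those of the files on GRCm39.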

Additional observations from a re-analysis of the deposited data

Results flagged for a closer look

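In a group of 5 libraries, a value is listed here when its gap to the nearest library exceeds 0.71 of the group's range, which chance gives in about 1 group in 20. Of 76 groups examined, 4 were listed. Mdm2 was at 68.8 CPM in RetSat ko 1, where RetSat ko 2 to 5 had 45.8 to 49.6 CPM. Ckap2 and Gtse1 were lowest in the same library, at 8.76 CPM against 12.5 to 13.5 CPM and at 6.36 CPM against 8.71 to 9.62 CPM. Retsat was at 33.4 CPM in RetSat ko 5, where RetSat ko 1 to 4 had 15.4 to 16.8 CPM.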

How the results depend on the processing

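Of the fits tried, DESeq2 called 123 genes and limma-voom with sample weights 10, against 6 in the edgeR fit. Leaving out 1 library at a time gave 5 to 846 called genes. The number called among the 10 p53 targets was 0 or 1 in those fits and 1 in DESeq2, among further p53 targets 0 to 2, among p53 and its regulators 0 or 1, among repair genes 0 to 5, among the p21-DREAM genes 0 to 16 (1 in DESeq2), among CDK inhibitors and senescence genes 0 or 1 and in the Bcl2 family 0 or 1. The top of each of these ranges was reached without RetSat ko 1, and the cause was not tested. The member median, -0.074 with all libraries, lay between -0.12 and -0.028 without single libraries and was 0.032 with the enterocyte score as covariate. That setting and the 2 that leave out libraries rich in acinar or B cell transcripts were chosen after seeing the data. With the covariate, signs turned for Cdkn1a (0.12), Mdm2 (0.15), Ccng1 (0.0017), Zmat3 (0.063), Eda2r (-0.018) and Glb1 (0.030). Without the 3 libraries highest in B cell markers they turned for Cdkn1a (0.024) and Eda2r (-0.35), and without the 4 highest in acinar markers for Trp53inp1 (0.045). In this last fit, with 3 libraries per group, Retsat was not called (log2 fold change -4.51, adjusted p = 0.0918). Leaving out single libraries, Cdkn1a lay between -0.14 and 0.0017, Zmat3 between -0.059 and 0.019, and Eda2r between -0.14 and 0.24, so that their directions are not fixed at this spread. With the replicate block 4 genes and 0 members were called. The numbers do not pair the libraries, since the correlation of same-numbered deviations lay between -0.149 and 0.00212 and 0 of the 5 RetSat ko libraries correlated best with its own number.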
